A study of Homo sapiens with 60 samples.

Results

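The genes of the hypoxia response and of glycolysis were followed in HepG2 cells, an established line from a human liver tumour, after 24 h with water extracts of tonifying herbs. The members are 40 genes named by symbol and matched to their Ensembl identifiers, out of 60675 genes in the count table. All 40 were among the 16167 genes that passed the filter on low counts, and all 40 also passed it when the Cinnamomi Cortex libraries at 500 µg/mL were left out. The cells received Cinnamomi Cortex, Astragali Radix, Cnidii Rhizoma or Rehmanniae Radix Preparata, which are single herbs, or Samul-tang or Sagunja-tang, which are formulas of several herbs, at 20, 100 or 500 µg/mL. Each of these 18 groups had 3 libraries. Palmul-tang, a further formula, had 1 library at each dose. The vehicle group of 3 libraries received dimethyl sulfoxide, at 0.1% per the sample labels and 2% per the design text of the series. All groups were the same purchased line, which derives from a tumour and is not normal liver. The labels do not say whether replicates were separate cultures, so p-values reflect only how far these samples spread, and that spread may be technical. Sample codes give Cinnamomi Cortex and Astragali Radix the set number 6, Cnidii Rhizoma and Rehmanniae Radix Preparata 5, both formulas with replicates 7, and Palmul-tang 8. The vehicle carries no such number, so in every comparison with vehicle the set and the treatment cannot be told apart, and all these comparisons share the same 3 vehicle libraries.

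When oxygen is plentiful, prolyl hydroxylases of the EGLN family mark the alpha subunits of hypoxia-inducible factor (HIF) for destruction through the von Hippel-Lindau protein, VHL. When oxygen is short, or the hydroxylases are blocked, the alpha subunit pairs with ARNT and binds DNA at elements with the core ACGTG or GCGTG. Its classical targets bring glucose into the cell, speed glycolysis, keep pyruvate from the mitochondria, export lactate and acid, modify collagen and recruit blood vessels. In liver the same enzymes of glycolysis run against gluconeogenesis, and hepatoma lines draw much of their energy from glucose.

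The 60 libraries held 16484546 to 34412234 expected counts each. All 13 hepatocyte markers examined, among them ALB, AFP and APOB, were expressed in every library. They summed to 75512 to 75964 CPM (counts scaled to the depth of each library) in the Cinnamomi Cortex libraries at 500 µg/mL and 63031 to 64863 CPM in the vehicle libraries. Of 14 markers of other cell types, 7 stayed under 1 CPM in all 57 replicated libraries (PTPRC, CD3E, CDH5, COL1A1, COL1A2, COL3A1 and DCN). The 14 summed to 2962 to 3378 CPM in the Cinnamomi Cortex libraries at 500 µg/mL and 1230 to 1373 CPM in the vehicle libraries, and lysozyme (LYZ) made up most of that. Genes of the mitochondrial genome took 19.4% to 22.3% of counts in the Cinnamomi Cortex libraries at 500 µg/mL and 14.4% to 16.7% in the vehicle libraries. The part of these differences in the results below was not tested, and in bulk RNA fewer cells of a type and less RNA per cell cannot be told apart. All levels below are CPM after TMM scaling. With total counts as library size instead, the median change of all genes in Cinnamomi Cortex at 500 µg/mL against vehicle moved to -0.30 on the log2 scale, from -0.02 with TMM, so changes there are relative to that shift.

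Promoter windows from RefSeq (GRCh38.p14), each from 250 bases before a start site to 50 after it and so 300 bases long, were found for 34 of the 40 members, in 59 windows. BNIP3L, VEGFA, SLC2A3, NDUFA4L2, FUT11 and NDRG1 had no entry. ACGTG was searched on both strands, so that a CACGTG counts as 2 matches that overlap, and occurred in 29 of the 59 windows (49.2%), against 21.4% of all 35116 windows. GCGTG, likewise on both strands, occurred in 30 of the 59 windows (50.8%), against 36.5% of all windows. At least 1 of the cores was present in some window of 31 of the 34 matched members, against 52.4% of all genes. The members had 59 windows for 34 genes and all genes 35116 for 27305, so a member had more chances of a match. Per window the shares were 74.6% and 48.4%. All genes here include genes that were not tested. The windows of 6 members are shown because their genes span the range of responses described below: CA9 and ADM are among the largest, ALDOC and LDHA are glycolytic genes that rose, EGLN3 is the oxygen sensor with the largest change, and WSB1 is the member that did not rise. Capitals mark the cores on either strand.
CA9: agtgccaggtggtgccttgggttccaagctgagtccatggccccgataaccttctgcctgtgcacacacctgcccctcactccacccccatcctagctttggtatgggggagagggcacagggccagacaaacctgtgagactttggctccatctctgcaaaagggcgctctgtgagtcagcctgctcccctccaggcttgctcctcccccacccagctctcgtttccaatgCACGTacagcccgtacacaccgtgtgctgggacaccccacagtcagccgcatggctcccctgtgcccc
ADM: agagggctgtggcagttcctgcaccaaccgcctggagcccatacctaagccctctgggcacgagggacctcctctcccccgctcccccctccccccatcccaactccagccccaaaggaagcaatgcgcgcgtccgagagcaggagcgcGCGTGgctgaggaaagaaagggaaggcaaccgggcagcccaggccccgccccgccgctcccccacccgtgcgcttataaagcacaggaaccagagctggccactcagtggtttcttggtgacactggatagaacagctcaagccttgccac
ALDOC: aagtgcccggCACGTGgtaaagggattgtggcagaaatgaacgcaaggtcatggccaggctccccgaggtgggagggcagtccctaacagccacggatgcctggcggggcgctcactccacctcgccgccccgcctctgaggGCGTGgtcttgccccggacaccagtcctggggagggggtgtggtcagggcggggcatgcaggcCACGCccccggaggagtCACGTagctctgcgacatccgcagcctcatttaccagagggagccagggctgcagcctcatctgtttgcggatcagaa
LDHA: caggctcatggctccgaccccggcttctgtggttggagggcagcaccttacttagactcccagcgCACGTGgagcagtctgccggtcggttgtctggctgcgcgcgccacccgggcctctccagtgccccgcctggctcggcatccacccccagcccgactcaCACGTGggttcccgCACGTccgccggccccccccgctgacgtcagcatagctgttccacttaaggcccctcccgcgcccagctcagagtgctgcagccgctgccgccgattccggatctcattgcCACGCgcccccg
EGLN3: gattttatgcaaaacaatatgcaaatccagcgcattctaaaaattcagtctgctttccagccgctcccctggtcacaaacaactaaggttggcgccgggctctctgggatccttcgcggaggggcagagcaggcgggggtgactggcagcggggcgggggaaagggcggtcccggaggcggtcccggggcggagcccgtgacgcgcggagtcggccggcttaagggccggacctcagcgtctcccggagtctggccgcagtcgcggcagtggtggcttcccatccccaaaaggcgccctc
WSB1: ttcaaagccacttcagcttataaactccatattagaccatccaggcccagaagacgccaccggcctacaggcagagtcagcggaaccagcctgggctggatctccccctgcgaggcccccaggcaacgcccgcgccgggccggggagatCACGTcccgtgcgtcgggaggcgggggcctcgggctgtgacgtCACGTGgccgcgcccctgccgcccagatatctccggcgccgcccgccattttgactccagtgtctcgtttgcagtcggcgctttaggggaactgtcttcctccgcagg
The windows lie at chr9:35673678-35673977 (plus strand), chr11:10304823-10305122 (plus strand), chr17:28576846-28577145 (minus strand), chr11:18394313-18394612 (plus strand), chr14:33951025-33951324 (minus strand) and chr17:27293864-27294163 (plus strand). LDHA has 5 matches of ACGTG and 1 of GCGTG, and ALDOC has 3 and 2. CA9 has 1 ACGTG, ADM has 1 GCGTG, and EGLN3 has no core in the window shown. WSB1 has 3 matches of ACGTG. By the GENCODE v29 annotation of GRCh38, CA9 (ENSG00000107159, chr9:35673856-35681159), ADM (ENSG00000148926, chr11:10304680-10307397), ALDOC (ENSG00000109107, chr17:28573115-28577264), LDHA (ENSG00000134333, chr11:18394388-18408425), EGLN3 (ENSG00000129521, chr14:33924231-34462774) and WSB1 (ENSG00000109046, chr17:27294076-27315926) are protein-coding genes, and the windows cover sequence just upstream of a start site and the first transcribed bases. A match describes the letters in a window and is not a binding site.

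Nearly the whole group was higher in Cinnamomi Cortex at 500 µg/mL. Of the 40 genes, 39 were higher than in vehicle and none was lower at an adjusted p under 0.05 by edgeR's quasi-likelihood test, while 31.1% of all genes tested were called higher. The median log2 fold change of the members was 1.43, against -0.02 over all genes tested. Glucose transporters, glycolytic enzymes from hexokinase to enolase, the gatekeepers of pyruvate, oxygen sensors, carbonic anhydrases, collagen hydroxylases and mitochondrial adaptors were all among those called. The exception was WSB1, a subunit of a ubiquitin ligase. With total counts as library size 37 members were higher and 1 was lower.

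**Figure D1:**
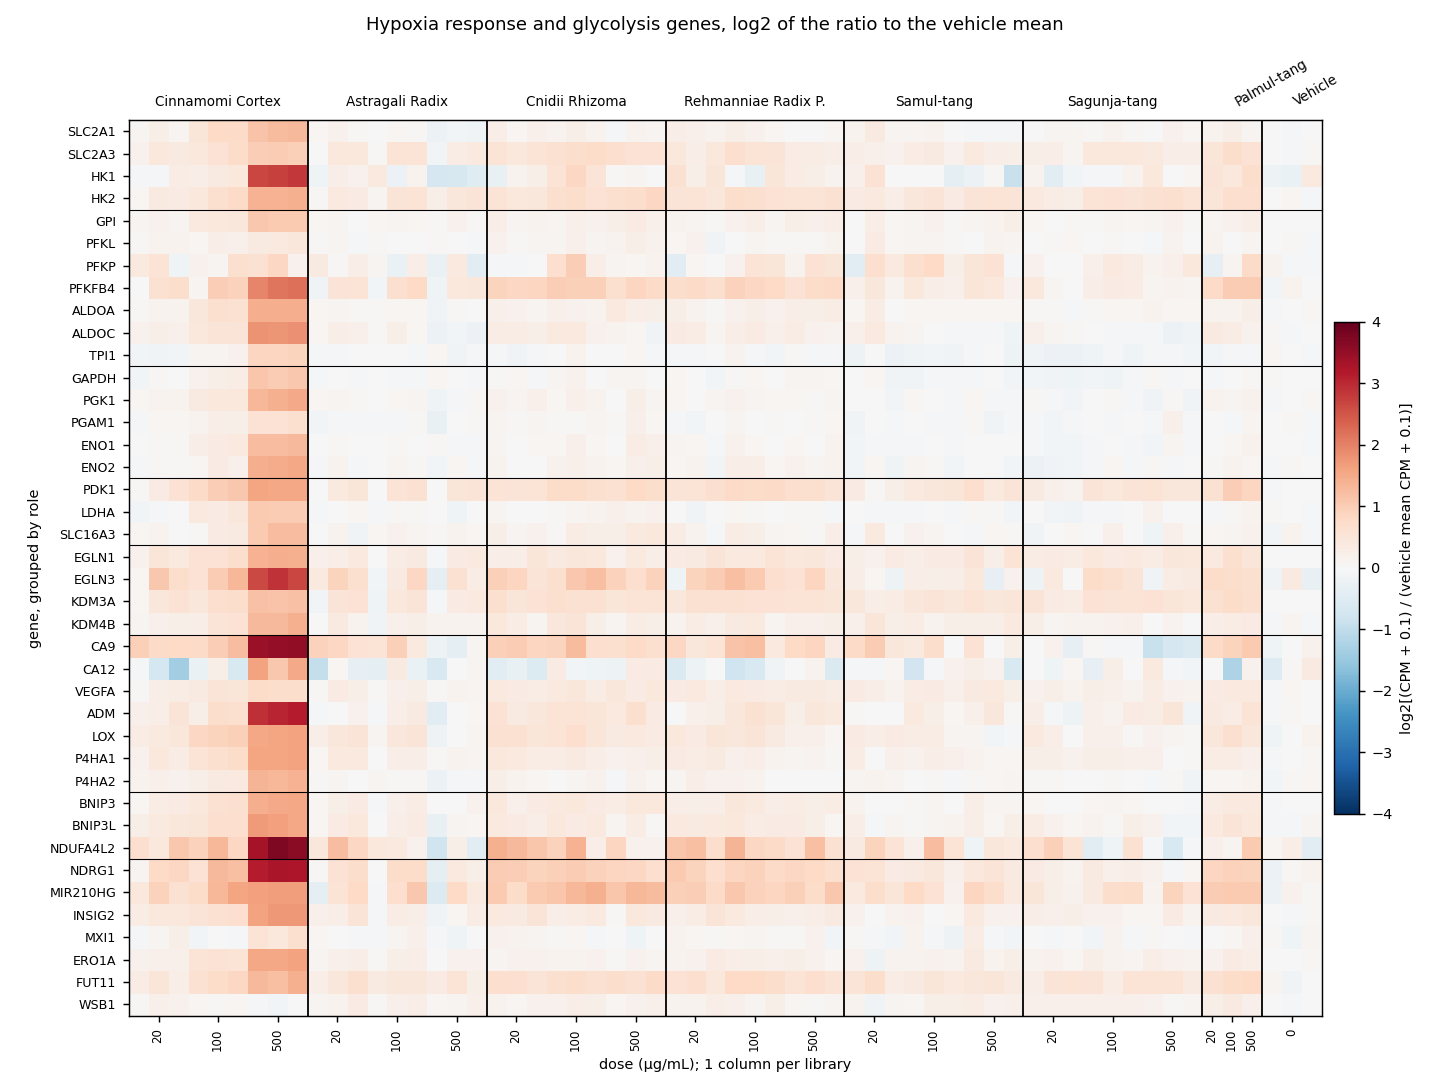
Log2 ratio of each member's level to its vehicle mean, after adding 0.1 CPM to both, with 1 row per gene in order of role (horizontal lines part the roles) and 1 column per library in order of extract and dose in µg/mL. Red is above and blue below the vehicle mean; the 3 columns of Cinnamomi Cortex at 500 µg/mL are the darkest, and the CA12, MXI1, PFKP and WSB1 rows stay pale or mixed elsewhere.

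CA9, a carbonic anhydrase at the cell surface that handles acid, had 29.8, 30.8 and 31.9 CPM in the Cinnamomi Cortex libraries at 500 µg/mL, against 2.30, 2.61 and 2.97 CPM in the vehicle libraries. Every treated library was far above every vehicle library, and the log2 fold change was 3.55 ± 0.17 (SE), which is 11.7-fold (adjusted p = 4.72e-24). NDRG1, a stress-responsive protein widely used as a hypoxia marker, had 329, 355 and 352 CPM in the Cinnamomi Cortex libraries at 500 µg/mL, against 31.5, 38.3 and 41.1 CPM in the vehicle libraries. No library of either group came near the other, and the log2 fold change was 3.22 ± 0.16 (adjusted p = 6.64e-23). ADM, which encodes the vessel-dilating peptide adrenomedullin, had 44.7, 48.4 and 51.3 CPM in the Cinnamomi Cortex libraries at 500 µg/mL, against 5.59, 5.95 and 5.80 CPM in the vehicle libraries. The groups were again far apart, with a log2 fold change of 3.06 ± 0.12 (adjusted p = 2.76e-27). These 3 had the largest changes among members with a mean of at least 2 CPM over the 57 replicated libraries.

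The 4 genes of glucose entry and trapping all rose, with a median log2 fold change of 1.32. SLC2A1, the widely expressed glucose transporter GLUT1, had 564, 616 and 624 CPM in the Cinnamomi Cortex libraries at 500 µg/mL, against 261, 249 and 256 CPM in the vehicle libraries. Every treated library held more than the highest vehicle library, and the log2 fold change was 1.23 ± 0.06 (adjusted p = 1.47e-22). HK2, the inducible hexokinase that traps glucose by phosphorylating it, had 270.1, 270.2 and 282 CPM in the Cinnamomi Cortex libraries at 500 µg/mL, against 103, 109 and 101 CPM in the vehicle libraries, with no overlap and a log2 fold change of 1.40 ± 0.08. SLC2A3, the high-affinity transporter GLUT3, rose by 0.99 ± 0.10 on that scale. HK1, the constitutive hexokinase of most tissues, changed most (2.87 ± 0.18), although its level stayed low, at 6.28, 6.52 and 6.95 CPM in the Cinnamomi Cortex libraries and 0.765, 0.728 and 1.20 CPM in the vehicle libraries.

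All 7 genes of upper glycolysis rose, with a median log2 fold change of 1.05. PFKFB4, which makes the activator of phosphofructokinase, led them at 2.11 ± 0.17, followed by the aldolases ALDOC (1.80 ± 0.07) and ALDOA (1.46 ± 0.05). The liver form of phosphofructokinase itself, PFKL, had 145, 146 and 153 CPM in the Cinnamomi Cortex libraries at 500 µg/mL, against 111, 116 and 109 CPM in the vehicle libraries. That is the smallest change of any member called here, 0.40 ± 0.06, yet its groups did not overlap (adjusted p = 3.20e-07). The platelet form PFKP, under 2 CPM throughout these groups, rose by 0.63 ± 0.26 (adjusted p = 0.0329). With total counts as library size, neither PFKL nor PFKP was called, and PFKP was also lost when single libraries were left out. GPI and TPI1, the isomerases on either side of aldolase, rose by 1.05 ± 0.05 and 0.87 ± 0.06.

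The 5 genes of lower glycolysis rose as well, with a median log2 fold change of 1.25. PGAM1, the mutase that moves the phosphate of phosphoglycerate, had 491, 493 and 510.4 CPM in the Cinnamomi Cortex libraries at 500 µg/mL, against 324, 339 and 321 CPM in the vehicle libraries. Its groups were separate although its change of 0.60 ± 0.06 was the smallest of these 5. GAPDH, the dehydrogenase often taken as a reference gene, had 5524, 5175 and 5372 CPM in the Cinnamomi Cortex libraries at 500 µg/mL, against 2656, 2506 and 2504 CPM in the vehicle libraries, a log2 fold change of 1.07 ± 0.05. PGK1, the first enzyme to return ATP, and the enolases ENO1 and ENO2 rose by 1.43 ± 0.06, 1.25 ± 0.05 and 1.49 ± 0.07. GAPDH, TPI1 and ENO2 lie within 0.39 Mb of each other on chromosome 12. GAPDH, ENO1, LDHA, PGK1 and PGAM1 have near-identical processed copies elsewhere in the genome, and SLC2A3 has a close paralogue, so the share of reads assigned to them is uncertain.

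All 3 genes that direct pyruvate and lactate rose. PDK1, the kinase that switches off pyruvate dehydrogenase, had 106, 103 and 105 CPM in the Cinnamomi Cortex libraries at 500 µg/mL, against 34.7, 36.0 and 35.9 CPM in the vehicle libraries. The libraries of each group lay close together and the groups far apart, with a log2 fold change of 1.56 ± 0.11 (adjusted p = 5.84e-17). LDHA, which turns pyruvate into lactate, had 2837, 2733 and 2763 CPM in the Cinnamomi Cortex libraries at 500 µg/mL, against 1409, 1356 and 1325 CPM in the vehicle libraries, a log2 fold change of 1.03 ± 0.05 with no overlap. SLC16A3, the lactate exporter MCT4, rose by 1.18 ± 0.10.

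The oxygen sensors and histone demethylases, enzymes that use oxygen as a substrate, all rose. EGLN3, a HIF prolyl hydroxylase that is itself a HIF target, had 5.05, 6.01 and 5.19 CPM in the Cinnamomi Cortex libraries at 500 µg/mL, against 0.650, 0.959 and 0.580 CPM in the vehicle libraries. It was scarce in vehicle, where 16 to 29 counts lie behind each value, and its log2 fold change was 2.87 ± 0.24 (adjusted p = 1.51e-14). EGLN1, the main hydroxylase in most cells, rose by 1.43 ± 0.08, and the demethylases KDM3A and KDM4B by 1.16 ± 0.12 and 1.34 ± 0.09.

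Of the genes of pH, vessels and matrix, all 7 rose. VEGFA, the main growth factor for blood vessels, had 187, 183 and 183 CPM in the Cinnamomi Cortex libraries at 500 µg/mL, against 105, 119 and 110.4 CPM in the vehicle libraries. Its groups did not overlap, but its log2 fold change of 0.72 ± 0.06 was the smallest of the 7. LOX, which crosslinks collagen, rose by 1.58 ± 0.08, and the collagen prolyl hydroxylase subunits P4HA1 and P4HA2 by 1.58 ± 0.07 and 1.36 ± 0.05. CA12, a further carbonic anhydrase, rose by 1.66 ± 0.33 at levels under 2 CPM.

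The mitochondrial members are the mitophagy receptors BNIP3 and BNIP3L and the respiratory chain protein NDUFA4L2, and all 3 rose. BNIP3 had 343, 359 and 368 CPM in the Cinnamomi Cortex libraries at 500 µg/mL, against 121, 127 and 128 CPM in the vehicle libraries. Its treated libraries were all far above vehicle, with a log2 fold change of 1.51 ± 0.07, and BNIP3L rose by 1.64 ± 0.09. NDUFA4L2, which was chosen for description after its values were seen, had 2.68, 3.58 and 3.29 CPM in the Cinnamomi Cortex libraries at 500 µg/mL, against 0.191, 0.232 and 0.109 CPM in the vehicle libraries. Its log2 fold change of 4.12 ± 0.32 is the largest of all members but rests on 3 to 7 counts in each vehicle library.

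Of the 7 other hypoxia-linked genes, 6 rose. INSIG2, which restrains sterol synthesis, rose by 1.70 ± 0.09, MIR210HG, the host transcript of the hypoxia microRNA miR-210, by 1.72 ± 0.24, ERO1A, an oxidase of the endoplasmic reticulum, by 1.56 ± 0.06 and FUT11, a fucosyltransferase, by 1.32 ± 0.09. MXI1, an antagonist of MYC, had 11.5, 10.6 and 12.4 CPM in the Cinnamomi Cortex libraries at 500 µg/mL, against 8.23, 7.08 and 8.48 CPM in the vehicle libraries. The groups were separate, with a log2 fold change of 0.54 ± 0.09. WSB1 had 67.1, 65.3 and 71.1 CPM in the Cinnamomi Cortex libraries at 500 µg/mL, against 71.9, 68.4 and 71.0 CPM in the vehicle libraries. These ranges overlap, and the log2 fold change of -0.05 ± 0.06 was not called (adjusted p = 0.433), whereas with total counts as library size it was called lower at -0.33 ± 0.07 (adjusted p = 1.75e-05).

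**Figure D2:**
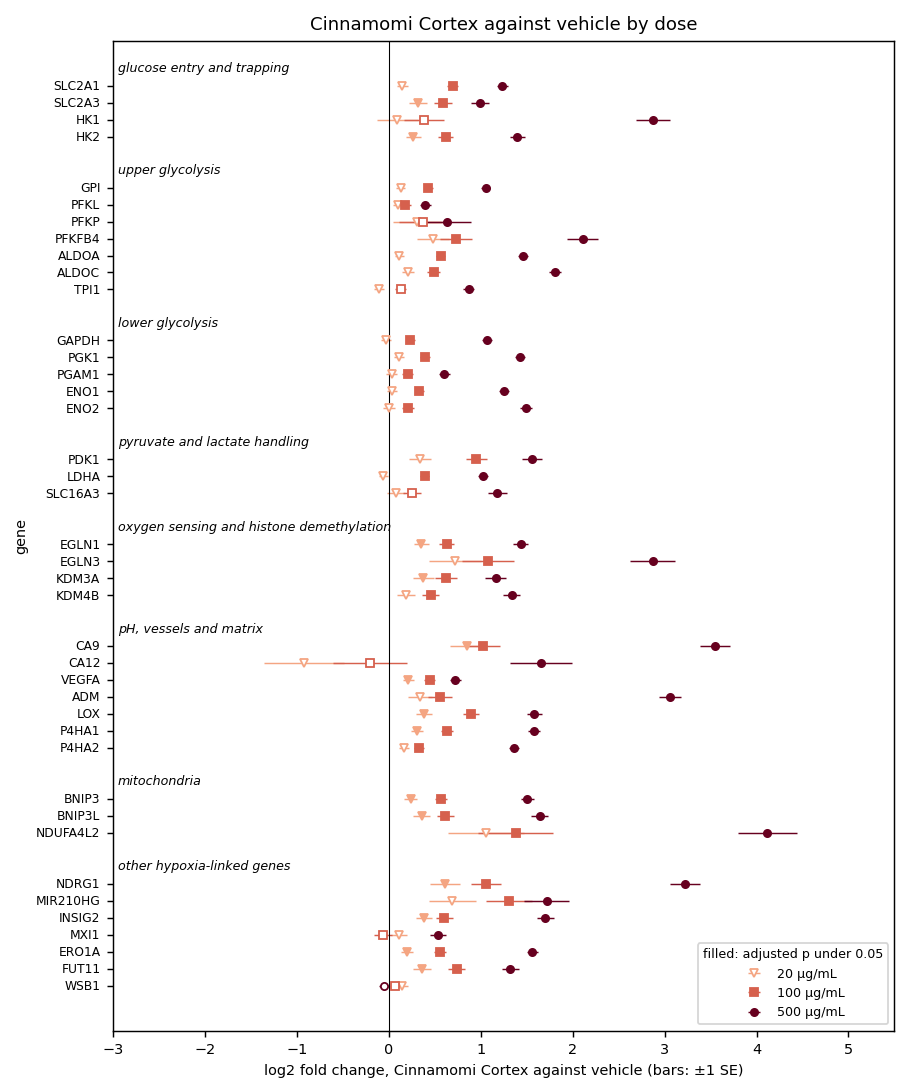
Log2 fold change of each member in Cinnamomi Cortex against vehicle (horizontal axis) at 20 (triangles), 100 (squares) and 500 µg/mL (circles), by role, with bars of 1 SE and filled symbols for an adjusted p under 0.05. At 500 µg/mL 39 of the 40 symbols are filled and right of 0; at 100 µg/mL 33 are, and at 20 µg/mL 14.

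At 20 µg/mL of Cinnamomi Cortex 14 members were higher than in vehicle, with a background of 3.85% of all genes, and none was lower; the members' median log2 fold change was 0.21. At 100 µg/mL 33 members were higher, with a background of 10.1%, none was lower, and the median was 0.55. The 14 genes called at 20 µg/mL were SLC2A3, HK2, EGLN1, KDM3A, CA9, VEGFA, LOX, P4HA1, BNIP3, BNIP3L, NDRG1, INSIG2, ERO1A and FUT11. HK2 was the one enzyme of glycolysis among them, whereas at 100 µg/mL 5 of the 7 upper glycolysis genes, all but PFKP and TPI1, and all 5 lower glycolysis genes were called. Of these, PFKL, PGAM1 and ENO2 lost their call at 100 µg/mL when some single libraries were left out, and under another setting. PFKFB4 at 100 µg/mL and HK2 at 20 µg/mL also lost theirs under another setting. The count at 20 µg/mL depended on single libraries. It was 5 without vehicle replicate 1 or Cinnamomi Cortex replicate 2, 6 without Cinnamomi Cortex replicate 3, and 7 without vehicle replicate 2.

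The steps between doses differed from gene to gene. CA9 had 2.30, 2.61 and 2.97 CPM in vehicle, 5.14, 4.53 and 4.62 CPM at 20 µg/mL, 4.49, 5.28 and 6.29 CPM at 100 µg/mL and 29.8, 30.8 and 31.9 CPM at 500 µg/mL, so that its largest step was the last. VEGFA had 105, 119 and 110.4 CPM in vehicle, 116, 133 and 138 CPM at 20 µg/mL, 142, 159 and 155 CPM at 100 µg/mL and 187, 183 and 183 CPM at 500 µg/mL, a climb by more even steps in which the libraries at 20 and 100 µg/mL did not overlap. The log2 fold change at 100 µg/mL was 61.4% of that at 500 µg/mL for VEGFA, 61.2% for PDK1, 76.1% for MIR210HG and 56.2% for SLC2A1. It was 13.4% for HK1, 13.7% for ENO2, 14.7% for TPI1, 18.1% for ADM and 28.8% for CA9. LDHA had 1409, 1356 and 1325 CPM in vehicle, 1275, 1284 and 1366 CPM at 20 µg/mL, 1780, 1728 and 1847 CPM at 100 µg/mL and 2837, 2733 and 2763 CPM at 500 µg/mL, and its libraries at 20 µg/mL overlapped those of vehicle. CA12 and MXI1 were not called at either lower dose, with log2 fold changes of -0.21 and -0.06 at 100 µg/mL.

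**Figure D3:**
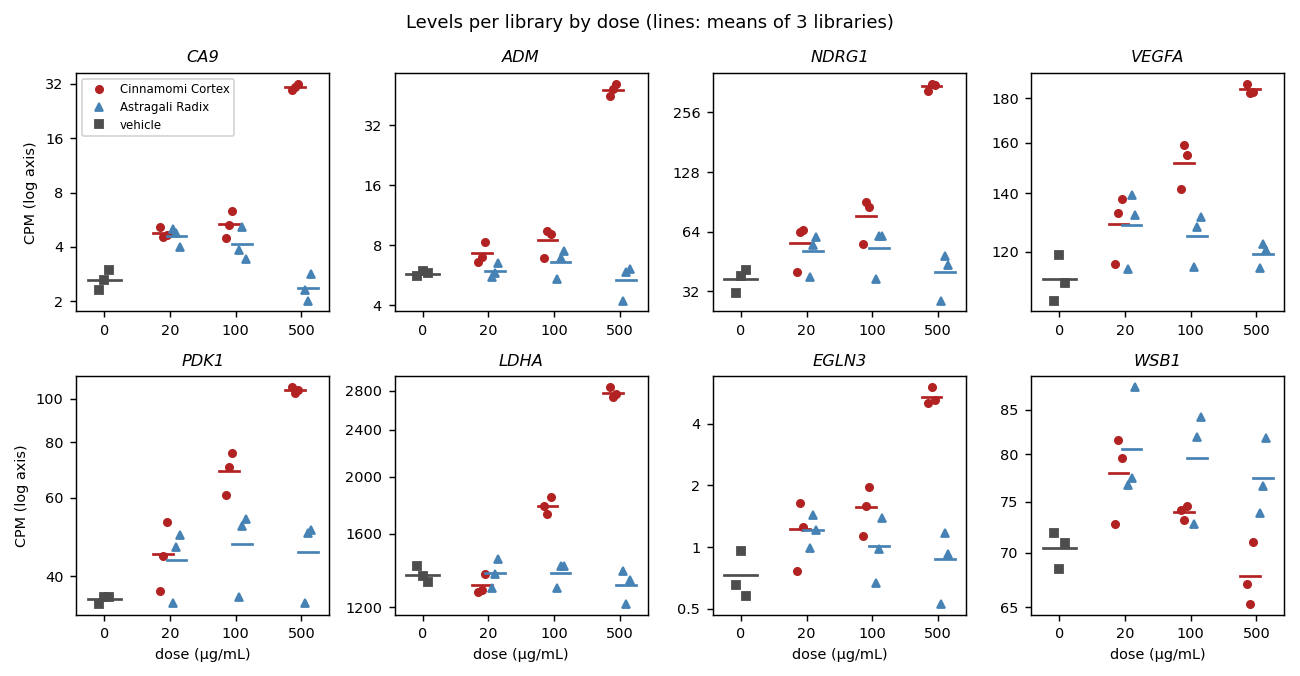
CPM per library (logarithmic vertical axis) against dose in µg/mL for CA9, ADM, NDRG1, VEGFA, PDK1, LDHA, EGLN3 and WSB1, with circles for Cinnamomi Cortex, triangles for Astragali Radix, squares for vehicle (dose 0) and lines at the means of 3 libraries. Cinnamomi Cortex at 500 µg/mL stands alone in 7 panels, for example at 29.8 to 31.9 CPM of CA9; in the WSB1 panel its mean lies lowest and its libraries overlap those of vehicle.

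A dose trend was fitted as a slope on the log2 scale for each 5-fold step of dose, over the 9 libraries of an extract; with equal steps the slope rests on the libraries at 20 and 500 µg/mL. In Cinnamomi Cortex it was called for 39 members, 38 of them upward, with a background of 61.9% of all genes called in either direction. The median trend was 0.60 per step, from 0.15 for PFKL among the upward calls to 1.53 ± 0.14 for NDUFA4L2, with CA9 at 1.35 ± 0.08 and ADM at 1.36 ± 0.06. WSB1 was the member that fell with dose, with a slope of -0.10 ± 0.03 per step (adjusted p = 0.00245), and PFKP was not called. No left-out library changed the count of 39. With total counts as library size the median trend of all genes was -0.14.

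Across the 40 members, those that were scarcer in vehicle changed more at 500 µg/mL. The rank correlation between the vehicle mean and the log2 fold change was -0.55 over the 40 genes, a description that shares the vehicle libraries between its axes. The 17 members with at least 100 CPM in vehicle had a median log2 fold change of 1.18 and ranged from 0.40 (PFKL) to 1.58 (P4HA1), and the 23 below 100 CPM had a median of 1.64. Members of a pair of related enzymes kept their rank but not their ratio, on CPM per kilobase of exon. HK2 was 43.2 times HK1 in Cinnamomi Cortex at 500 µg/mL and 120 times in vehicle, EGLN1 was 25.7 times EGLN3 and 70.8 times in vehicle, and ALDOA was 24.9 times ALDOC and 31.5 times in vehicle. The ratio was higher in Cinnamomi Cortex at 500 µg/mL for CA9 over CA12, at 132 against 36.1 in vehicle, and for P4HA1 over P4HA2, at 10.3 against 8.85. It was also higher for SLC2A1 over SLC2A3, at 3.19 against 2.7 in vehicle.

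Transcripts for the HIF pathway itself changed in both directions. Of 17 HIF pathway components tested, 8 were higher in Cinnamomi Cortex at 500 µg/mL than in vehicle, 3 were lower and 6 were not called. Of all genes tested 31.1% were called higher, and the share called lower is not given here. CITED2, which competes with HIF for its coactivators, rose by 1.50 ± 0.10 on the log2 scale, and EPAS1, which encodes HIF-2 alpha, by 0.69 ± 0.04. HIF1A, which encodes HIF-1 alpha and is controlled mainly at the protein level, changed by 0.13 ± 0.06 (adjusted p = 0.0478), a sign that turned to -0.15 with total counts as library size. HIF3A fell by 1.86 ± 0.18, with ARNT2 at -0.64 ± 0.21 and CUL2 at -0.41 ± 0.06. VHL, at 0.01 ± 0.05, and HIF1AN, EP300, CREBBP, ELOC and RBX1 were not called. EGLN2, ELOB, RACK1, ARNT and OS9 rose by 0.44, 0.36, 0.44, 0.20 and 0.16, of which ARNT and OS9 changed sign with total counts as library size. With that scaling 3 of the 17 were called higher and 10 lower.

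Among 33 further genes of glycolysis and pyruvate, 26 were tested, 9 were higher, 8 lower and 9 not called (5 higher and 15 lower with total counts as library size). The share called higher was near the 31.1% of all genes, and the share of all genes called lower is not given here. PKM, the pyruvate kinase of most proliferating cells, had 1418, 1403 and 1366 CPM in the Cinnamomi Cortex libraries at 500 µg/mL, against 567, 605 and 588 CPM in the vehicle libraries. Its groups were far apart, with a log2 fold change of 1.25 ± 0.06, and PFKFB3, which makes the activator of phosphofructokinase, rose by 3.51 ± 0.27. BSG, the chaperone of lactate transporters, rose by 0.52 ± 0.08. The mitochondrial pyruvate carrier subunit MPC1 was lower, at -0.51 ± 0.05. The pyruvate dehydrogenase subunits PDHB and PDHA1 were at 0.12 ± 0.05 (adjusted p = 0.024) and -0.11 ± 0.05 (called lower, adjusted p = 0.04999). SLC16A1, the lactate transporter MCT1, was at 0.25 ± 0.04 (adjusted p = 1.76e-07). PDHB and SLC16A1 changed sign with total counts as library size.

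Of 40 further genes linked to hypoxia, 37 were tested and all 37 were higher in Cinnamomi Cortex at 500 µg/mL (31 with total counts as library size, and none lower). The list was chosen with earlier results of these data known, so these counts are a description and not a separate check. IGFBP1, the liver's insulin-like growth factor binding protein, rose by 4.89 ± 0.20 on the log2 scale. The lysyl hydroxylases PLOD2 and PLOD1 rose by 1.46 ± 0.08 and 0.67 ± 0.05, P4HB, the partner of P4HA1, by 0.53 ± 0.04, and the transferrin receptor TFRC by 0.59 ± 0.05. At 20 µg/mL 8 of the 37 were higher, and at 100 µg/mL 26, with none lower at either dose. All of these comparisons share the vehicle libraries and the 31.1%, 10.1% and 3.85% of all genes called higher at 500, 100 and 20 µg/mL.

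Astragali Radix, the extract of the same set, changed few members. At 20 µg/mL 8 were higher than in vehicle (background 2.55% of genes), at 100 µg/mL 5 (1.44%) and at 500 µg/mL 2 (1.56%), with none lower. The 2 at 500 µg/mL were HK2, at 0.41 ± 0.08 on the log2 scale, and FUT11, at 0.38 ± 0.10. In the plot of levels by dose its CA9, at 5.02, 4.77 and 4.01 CPM at 20 µg/mL, 3.84, 5.13 and 3.44 CPM at 100 µg/mL and 2.29, 2.01 and 2.81 CPM at 500 µg/mL, fell with dose. The dose trend was called for 4 members, against 1.16% of all genes, all downward: CA9 at -0.47 ± 0.10 per step, LOX at -0.22 ± 0.04, ALDOC at -0.19 ± 0.04 and SLC2A1 at -0.14 ± 0.03. Their levels at 500 µg/mL were not called against vehicle; LOX had 32.2, 36.4 and 40.1 CPM in the Astragali Radix libraries at 500 µg/mL, against 33.0, 37.3 and 40.7 CPM in the vehicle libraries, and these overlap. The trend count was 2 without Astragali Radix replicate 1 at 500 µg/mL.

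Replicate 1 of set 6 stood low among the members. For 11 members it had the lowest value of the 3 replicates in each of the 6 groups, and for 12 more in 5 of the 6. Its median log2 difference from the mean of replicates 2 and 3 was -0.87 for MIR210HG, -0.73 for EGLN3, -0.67 for PFKFB4, -0.66 for NDRG1 and -0.43 for PDK1. Neither measure was taken over all genes, so a low replicate 1 is not shown to be particular to the members. NDRG1 had 40.2, 63.7 and 65.1 CPM in Cinnamomi Cortex at 20 µg/mL and 37.9, 55.1 and 60.3 CPM in Astragali Radix at 20 µg/mL, with replicate 1 first, against 31.5, 38.3 and 41.1 CPM in vehicle. At Cinnamomi Cortex 500 µg/mL the gap was small, with 329 CPM in replicate 1 beside 355 and 352 CPM. Without these 6 libraries Astragali Radix had 18, 16 and 7 members higher at 20, 100 and 500 µg/mL and Cinnamomi Cortex 20, 34 and 38, while the dose trend was called for 39 members in Cinnamomi Cortex and 3 in Astragali Radix. The share of all genes called without these libraries is not given here, so the shifts are not shown to be particular to the members. Single libraries moved the Astragali Radix counts as well: leaving out vehicle replicate 1, 2 or 3 gave 1, 5 and 5 at 20 µg/mL, replicate 1 or 2 gave 2 and 2 at 100 µg/mL, and replicate 2 or 3 gave 1 and 1 at 500 µg/mL. Leaving out its own replicate 1, 2 or 3 gave 16, 3 and 2 at 20 µg/mL and 14, 1 and 0 at 100 µg/mL, and its own replicate 1 or 2 gave 5 and 1 at 500 µg/mL.

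**Figure D4:**
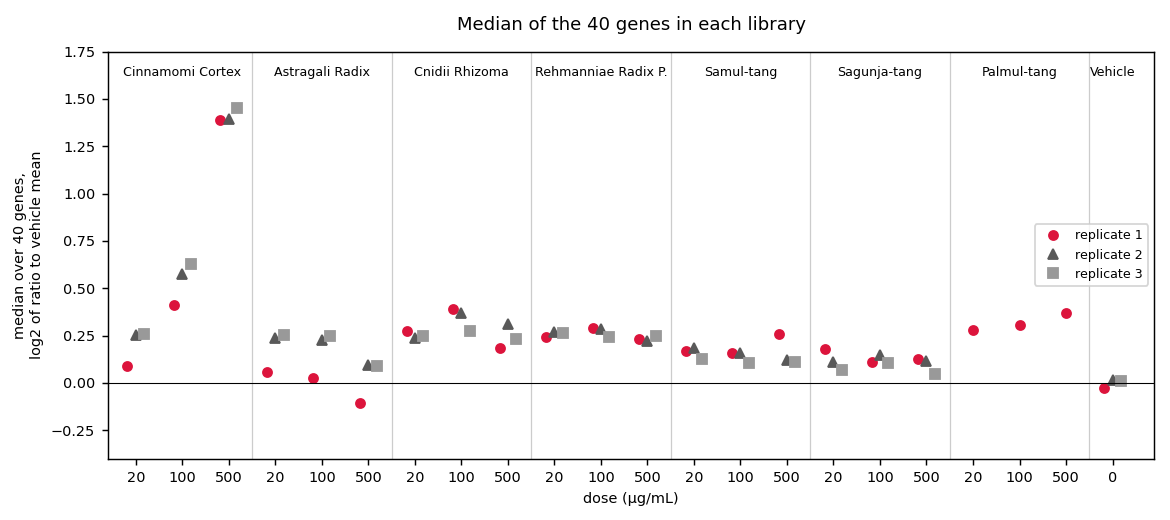
Median over the 40 members of the log2 ratio to the vehicle mean in each library (vertical axis), by extract and dose in µg/mL, with circles, triangles and squares for replicates 1, 2 and 3. Cinnamomi Cortex climbs to between 1.39 and 1.45 at 500 µg/mL, and in both extracts of set 6 replicate 1 lies below replicates 2 and 3 at 20 and 100 µg/mL.

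At 500 µg/mL Cinnamomi Cortex and Astragali Radix, which share a set, were compared directly. All 40 members differed, 39 higher in Cinnamomi Cortex and WSB1 lower, with 62.7% of all genes called in either direction. CA9 had 29.8, 30.8 and 31.9 CPM in Cinnamomi Cortex and 2.29, 2.01 and 2.81 CPM in Astragali Radix, and the log2 difference was 3.68 ± 0.17 (adjusted p = 7.69e-24). PFKL, the smallest of the upward differences, was at 0.40 ± 0.06. WSB1 had 67.1, 65.3 and 71.1 CPM in Cinnamomi Cortex and 73.8, 76.7 and 81.8 CPM in Astragali Radix, with no overlap and a difference of -0.19 ± 0.06 (adjusted p = 0.00386). This comparison does not use the vehicle libraries.

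In Cnidii Rhizoma 21, 23 and 23 members were higher than in vehicle at 20, 100 and 500 µg/mL, with backgrounds of 3.54%, 2.15% and 6.11% of genes, and none was lower. In Rehmanniae Radix Preparata 22, 20 and 14 were higher, with backgrounds of 4.14%, 2.45% and 3.87%, and none was lower. The changes were small beside those of Cinnamomi Cortex at 500 µg/mL: the members' median log2 fold change was 0.27, 0.35 and 0.24 in Cnidii Rhizoma and 0.24, 0.27 and 0.22 in Rehmanniae Radix Preparata. The dose trend was called for 0 members in Cnidii Rhizoma (background 3.22%) and 0 in Rehmanniae Radix Preparata (0.674%) by edgeR, where 9 and 7 had an unadjusted p under 0.05 and DESeq2 called 2 and 0. The Cnidii Rhizoma count was 1 without its replicate 1 or 2 at 500 µg/mL or its replicate 3 at 100 µg/mL. NDRG1 had 75.6, 73.9 and 68.0 CPM at 20 µg/mL, 72.4, 75.6 and 70.2 CPM at 100 µg/mL and 66.7, 65.8 and 59.6 CPM at 500 µg/mL of Cnidii Rhizoma, all above the 31.5, 38.3 and 41.1 CPM of vehicle, and its log2 fold change at 500 µg/mL was 0.79 ± 0.16. PDK1 had 57, 56.0 and 51.0 CPM in the Rehmanniae Radix Preparata libraries at 500 µg/mL, against 34.7, 36.0 and 35.9 CPM in the vehicle libraries, with no overlap and a log2 fold change of 0.62 ± 0.11 (adjusted p = 3.50e-04). MIR210HG had the largest change in Cnidii Rhizoma at 500 µg/mL, 1.29 ± 0.25.

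The members called at every dose of both extracts came from all roles except lower glycolysis. HK2, PFKFB4, PDK1, EGLN1, KDM3A, CA9, VEGFA, BNIP3, NDRG1, MIR210HG and FUT11 were these members. Of the 5 lower glycolysis genes, ENO1 alone was called, at 0.18 ± 0.05 in Cnidii Rhizoma at 500 µg/mL. GAPDH, PGK1, PGAM1, ENO2 and TPI1 were called at no dose of either. Without vehicle replicate 1 the counts in Cnidii Rhizoma were 15 at 100 µg/mL and 12 at 500 µg/mL, and those in Rehmanniae Radix Preparata were 13 at 20 µg/mL and 13 at 100 µg/mL. Without vehicle replicate 2 the count in Rehmanniae Radix Preparata was 13 at 20 µg/mL. Compared with each other at 500 µg/mL, Cnidii Rhizoma and Rehmanniae Radix Preparata differed in 0 members by edgeR (background 0.705%), with 5 at an unadjusted p under 0.05 and 1 by DESeq2.

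In Samul-tang 13, 8 and 11 members were higher than in vehicle at 20, 100 and 500 µg/mL, with backgrounds of 10.8%, 4.41% and 7.44% of genes, and none was lower. With only vehicle and Samul-tang at the one dose in a fit, 1 was higher at 20 µg/mL, and 14 were higher and 1 lower at 100 µg/mL. In Sagunja-tang 7, 9 and 8 were higher, with backgrounds of 6.23%, 5.31% and 6.76%. There 1 was lower at 20 µg/mL, the isomerase TPI1 at -0.19 ± 0.06 (5.13% of genes were lower), and 1 at 500 µg/mL, CA9 (5.52%). CA9 had 1.39, 1.61 and 1.74 CPM in the Sagunja-tang libraries at 500 µg/mL, against 2.30, 2.61 and 2.97 CPM in the vehicle libraries. The groups did not overlap, and the log2 fold change was -0.73 ± 0.22 (adjusted p = 0.024). HK2, in contrast, had 157, 161 and 153 CPM in the Sagunja-tang libraries at 500 µg/mL, against 103, 109 and 101 CPM in the vehicle libraries, a rise of 0.60 ± 0.08. At 500 µg/mL both formulas had SLC2A3, HK2, PDK1, EGLN1, KDM3A, VEGFA, ERO1A and FUT11 called higher, with vehicle in common.

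Few members had a dose trend in the formulas, a share of the 40 near that of all genes. In Samul-tang 5 members were called (background 9.88%), and 0 when its own libraries were fitted alone: ERO1A and WSB1 upward, at 0.10 ± 0.03 and 0.09 ± 0.03 per step, and SLC2A1, ALDOC and LOX downward, at -0.14 ± 0.03, -0.18 ± 0.03 and -0.16 ± 0.04. In Sagunja-tang 2 were called (4.99%), HK2 upward at 0.14 ± 0.04 and ALDOC downward at -0.13 ± 0.03. ALDOC had 34.5, 39.3 and 32.7 CPM at 20 µg/mL, 32.3, 29.2 and 28.5 CPM at 100 µg/mL and 28.4, 28.7 and 26.2 CPM at 500 µg/mL of Samul-tang, and the 20 and 500 µg/mL libraries did not overlap. The Samul-tang trend count was 3 without its replicate 1 at 500 µg/mL, 2 without its replicate 3 at 500 µg/mL and 0 without its replicate 2 at 20 µg/mL. The Sagunja-tang trend count was 1 without any 1 of its libraries at 500 µg/mL or without its replicate 2 or 3 at 20 µg/mL. Against each other at 500 µg/mL, Samul-tang and Sagunja-tang differed in 1 member (background 0.885%): CA9 had 3.98, 2.62 and 3.13 CPM in Samul-tang and 1.39, 1.61 and 1.74 CPM in Sagunja-tang, a log2 difference of 1.05 ± 0.22 (adjusted p = 0.00736) that was not called without Samul-tang replicate 1.

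Several counts in the formulas rested on single libraries. For Samul-tang, leaving out vehicle replicate 1 or 2 or its own replicate 2 gave 6, 8 and 8 at 20 µg/mL, the last with 7 higher and 1 lower. Leaving out vehicle replicate 1 or Samul-tang replicate 2 or 3 gave 4, 5 and 4 at 100 µg/mL. For Sagunja-tang, leaving out vehicle replicate 1 or 2 or its own replicate 1 or 2 gave 4, 4, 4 and 5 at 20 µg/mL in both directions together, and leaving out vehicle replicate 3 or its own replicate 1 gave 5 and 5 at 500 µg/mL.

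Some members were above vehicle in most comparisons of the extracts other than Cinnamomi Cortex. Among the 15 comparisons of these 5 extracts with vehicle, which share the vehicle libraries, FUT11 was higher in 15, HK2 in 14, EGLN1 and VEGFA in 13, KDM3A in 12 and PDK1 in 11. FUT11, chosen for description after its values were seen, had means between 11.2 and 14.6 CPM in the 15 groups, against 9.26, 7.81 and 8.62 CPM in the vehicle libraries. At the other end CA12, ENO2, GAPDH, HK1, MXI1, PFKP, PGAM1, PGK1 and TPI1 were higher in none of the 15. A comparator other than vehicle, the average of the 6 groups that received 20 µg/mL, was tried after the data were seen and gave other counts at 500 µg/mL. Cinnamomi Cortex then had 39 members higher and 1 lower, Cnidii Rhizoma 15 and 1, Rehmanniae Radix Preparata 3 and 2, Astragali Radix 0 and 12, Samul-tang 0 and 4, and Sagunja-tang 1 and 10. The share of all genes called under this comparator is not given here, so these counts are not shown to be particular to the members.

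The difference between the dose trend of Cinnamomi Cortex and that of each other extract was tested directly. It was called for 38 members against Astragali Radix (background 50.9%), 38 against Cnidii Rhizoma (50.6%), 38 against Rehmanniae Radix Preparata (48.4%), 39 against Samul-tang (54.0%) and 37 against Sagunja-tang (50.0%). PFKP was called in none of the 5, with differences between -0.14 and 0.33 per step. WSB1, with the opposite sign to the other members, was called against Cnidii Rhizoma (-0.11 ± 0.04) and Samul-tang (-0.20 ± 0.04). MIR210HG was not called against Cnidii Rhizoma (0.36 ± 0.16) or Sagunja-tang (0.36 ± 0.17).

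**Figure D5:**
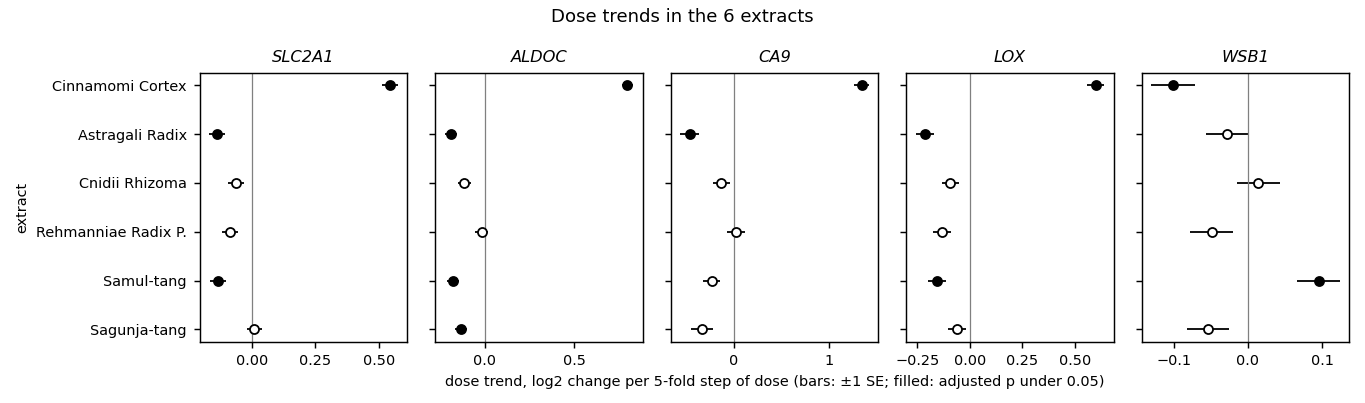
Dose trend, as log2 change per 5-fold step of dose (horizontal axis), of SLC2A1, ALDOC, CA9, LOX and WSB1 in each of 6 extracts (rows), with bars of 1 SE and filled symbols for an adjusted p under 0.05. SLC2A1, ALDOC, CA9 and LOX are positive in Cinnamomi Cortex and negative in Astragali Radix, all filled; WSB1 is negative in Cinnamomi Cortex and positive in Samul-tang.

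Palmul-tang, with 1 library per dose, has no replicate check and no test. Its members' median log2 ratio to the vehicle mean was 0.28 at 20 µg/mL, 0.31 at 100 µg/mL and 0.37 at 500 µg/mL. In the library at 500 µg/mL 37 of the 40 members were above all 3 vehicle libraries and 0 below them, and at 20 and 100 µg/mL 29 and 30 were above and 3 and 3 below. The share over all genes was not computed, so these counts are not shown to be particular to the members. CA9 was at 4.53, 4.97 and 5.58 CPM at 20, 100 and 500 µg/mL, and NDRG1 at 66.6, 69.4 and 69.3 CPM, both above their vehicle libraries. None of these reached the level of Cinnamomi Cortex at 500 µg/mL.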

How the data were processed

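RNA of HepG2 cells was sequenced from a directional library kit as paired ends, per the labels' protocols. Per the submitters' processing notes, the tools included RSEM 1.3.3, STAR 2.7.3a, FastQC 0.11.9 and Trim Galore 0.6.5, with the build hg38. The annotation release and the strand setting of counting are not given in the sources used here, so reads of MIR210HG and of genes that overlap others cannot be told apart from those of the opposite strand. The values are expected counts per gene as deposited by the authors, with RSEM among the tools that the submitters' processing notes list, and 8.58% of the values used are not whole; these were rounded. Of the 270 columns, 210 match no sample used here and were left out.

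Genes were kept by edgeR 4.0.16 filterByExpr (R 4.3.3, limma 3.58.1), scaled by TMM (factors 0.834 to 1.05) and fitted by quasi-likelihood over 57 libraries in 19 groups, with 32 comparisons and Benjamini-Hochberg adjustment over all 16167 genes of each, called at an adjusted p under 0.05. The Palmul-tang ratios and the medians per library use a prior count of 2. The tested fold changes use edgeR's default prior count. Each SE given with them is the absolute log2 fold change divided by the square root of the quasi-likelihood F statistic. It was not estimated separately. The script was tested on simulated data. Gene positions and exon lengths are from GENCODE v29, which matched 57055 of the 60675 identifiers. The 40 members, the 3 pathway lists and the marker lists were chosen with earlier results of these data known. Values per library are given for the 3 largest and 3 smallest called changes in Cinnamomi Cortex at 500 µg/mL among members with a mean of at least 2 CPM over the 57 libraries, and for SLC2A1, HK2, PDK1, LDHA, CA9, VEGFA, EGLN3 and BNIP3. All HIF components tested, and of the other 2 lists the 6 with the highest mean and PFKFB3, are named, except 1 gene that is not reported here. HK1, GAPDH, NDUFA4L2, WSB1, ALDOC, LOX and FUT11 are given per library as well, outside that rule, and were chosen after their values were seen. The alternatives were RLE size factors, no filter, DESeq2 1.42.0, the compared groups alone, replicate number as a block, and leaving out each library. The labels do not tie replicate numbers across groups, and over all genes same-numbered samples did not deviate together in every pair, so the main fit has no block; replicate 1 of set 6 is described apart.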

Additional observations from a re-analysis of the deposited data

Results flagged for a closer look

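The dose trend of Cinnamomi Cortex differed from that of another extract in most members by a direct test of the difference. It was called for 38 members against Cnidii Rhizoma (50.6% of all genes), 38 against Rehmanniae Radix Preparata (48.4%) and 38 against Astragali Radix (50.9%). Against Sagunja-tang it was called for 37 (50.0%) and against Samul-tang for 39 (54.0%). In 9 cases both trends were called and had opposite signs. Per 5-fold step of dose on the log2 scale, the trend of Cinnamomi Cortex minus that of Astragali Radix was 0.68 ± 0.04 (SE) for SLC2A1, 0.99 ± 0.05 for ALDOC, 1.81 ± 0.13 for CA9 and 0.82 ± 0.06 for LOX. Minus that of Samul-tang it was 0.68 ± 0.04 for SLC2A1, 0.98 ± 0.05 for ALDOC, 0.76 ± 0.06 for LOX and -0.20 ± 0.04 for WSB1. Minus that of Sagunja-tang it was 0.93 ± 0.05 for ALDOC. The adjusted p of these differences by edgeR ran up to 6.77e-05, the value for WSB1. These differences stayed called under each alternative run, but the trends of the other extracts behind them were less stable. Leaving out single libraries ended the call of SLC2A1, CA9 and LOX in Astragali Radix, of ALDOC in Sagunja-tang and of SLC2A1, ALDOC, LOX and WSB1 in Samul-tang, and fitting Samul-tang without the other extracts ended all 4 of its calls. ALDOC in Astragali Radix was called throughout.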

How the results depend on the processing

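Counts below are members called in both directions together, and the cause of each shift was not tested. The share of all genes called under each alternative is not given here, so the shifts are not shown to be particular to the members. With RLE size factors all 32 counts stayed within 1.5 times. The counts of Cinnamomi Cortex against vehicle, its dose trend, its comparison with Astragali Radix and its trend differences stayed within 1.5 times under every other setting except the leaving out of single libraries. Those that moved were as follows. Without a filter on low counts, Astragali Radix at 500, 100 and 20 µg/mL had 7, 11 and 15, Sagunja-tang at 20 µg/mL had 13, the trends of Cnidii Rhizoma, Rehmanniae Radix Preparata, Astragali Radix, Sagunja-tang and Samul-tang had 2, 2, 7, 4 and 9, Cnidii Rhizoma against Rehmanniae Radix Preparata had 2 and Samul-tang against Sagunja-tang had 2. With DESeq2 the Cnidii Rhizoma and Sagunja-tang trends had 2 and 4, and Cnidii Rhizoma against Rehmanniae Radix Preparata had 1.

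Over all genes the deviations of same-numbered samples correlated between -0.118 and 0.181, short of a pairing in every comparison, although replicate 1 of set 6 was low for many members. For Cinnamomi Cortex against Astragali Radix at 500 µg/mL they correlated at 0.0296 to 0.0538, and differently numbered samples at -0.0448 to -0.0032. For Astragali Radix at 100 µg/mL against vehicle the ranges were 0.0285 to 0.0647 and -0.0607 to 0.0112. In every other comparison the ranges overlapped. With a replicate block the Cnidii Rhizoma and Sagunja-tang trends had 2 and 4. With the replicate block within set, Astragali Radix at 500, 100 and 20 µg/mL had 5, 12 and 18, Sagunja-tang at 20 µg/mL had 14, the trends of Cnidii Rhizoma, Rehmanniae Radix Preparata, Astragali Radix, Sagunja-tang and Samul-tang had 2, 2, 7, 6 and 8, Cnidii Rhizoma against Rehmanniae Radix Preparata had 1 and Samul-tang against Sagunja-tang had 3. When a fit held the compared groups alone, Astragali Radix at 500 and 100 µg/mL had 1 and 3, Samul-tang at 100 and 20 µg/mL had 15 and 1, Sagunja-tang at 20 µg/mL had 14, the trends of Cnidii Rhizoma, Rehmanniae Radix Preparata, Sagunja-tang and Samul-tang had 1, 1, 4 and 0, and the same extract pairs had 1 and 0.

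The remaining settings were chosen after seeing the data. With total counts as library size, Astragali Radix at 20 µg/mL had 4 and the Cnidii Rhizoma and Sagunja-tang trends 2 and 1. Without the replicate 1 libraries of set 6, Astragali Radix at 500, 100 and 20 µg/mL had 7, 16 and 18, the Cnidii Rhizoma, Rehmanniae Radix Preparata and Samul-tang trends 1, 1 and 8, and the extract pairs 1 and 2. With the average of the 20 µg/mL groups in place of vehicle, Rehmanniae Radix Preparata, Astragali Radix and Samul-tang at 500 µg/mL had 5, 12 and 4, and Cnidii Rhizoma, Rehmanniae Radix Preparata, Astragali Radix, Sagunja-tang and Samul-tang at 100 µg/mL had 6, 3, 0, 2 and 0. Under that comparator 18 gene values turned negative, none of them called: in Cnidii Rhizoma at 500 µg/mL LOX -0.013, P4HA1 -0.078, INSIG2 -0.0085 and EGLN1 -0.040, in Rehmanniae Radix Preparata at 500 µg/mL ALDOC -0.0039, in Astragali Radix FUT11 -0.12 at 500 µg/mL and LOX -0.010 and FUT11 -0.075 at 100 µg/mL, in Sagunja-tang SLC2A3 -0.014 and VEGFA -0.053 at 500 µg/mL and VEGFA -0.058, P4HA1 -0.069 and FUT11 -0.036 at 100 µg/mL, and in Samul-tang SLC2A3 -0.012 and FUT11 -0.062 at 500 µg/mL and P4HA1 -0.068, EGLN1 -0.015 and FUT11 -0.072 at 100 µg/mL.

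Leaving out single libraries, counts against vehicle at 500, 100 and 20 µg/mL ran 38 to 39, 29 to 34 and 5 to 17 for Cinnamomi Cortex, 1 to 5, 0 to 14 and 1 to 16 for Astragali Radix, 12 to 20, 15 to 20 and 16 to 21 for Cnidii Rhizoma, 10 to 13, 13 to 20 and 13 to 19 for Rehmanniae Radix Preparata, 8 to 11, 4 to 8 and 6 to 12 for Samul-tang, and 5 to 10, 6 to 8 and 4 to 7 for Sagunja-tang. Trends ran 39 to 39 for Cinnamomi Cortex, 2 to 6 for Astragali Radix, 0 to 1 for Cnidii Rhizoma, 0 to 0 for Rehmanniae Radix Preparata, 0 to 7 for Samul-tang and 1 to 3 for Sagunja-tang. The pairs ran 39 to 40, 0 to 0 and 0 to 1. Trend differences of Cinnamomi Cortex ran 37 to 39 against Cnidii Rhizoma, 37 to 38 against Rehmanniae Radix Preparata, 38 to 39 against Astragali Radix, 37 to 38 against Sagunja-tang and 37 to 39 against Samul-tang. For Palmul-tang a prior count of 0.5 moved the medians by less than the vehicle spread. Depth limits NDUFA4L2, CA12, PFKP, EGLN3 and HK1, the members with the fewest counts in vehicle.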

Other observations

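Outside the members, several tissue forms of glucose transporters and glycolytic enzymes were lower in Cinnamomi Cortex at 500 µg/mL. The genes of this paragraph were chosen after their values were seen, and among the members the liver form PFKL rose. SLC2A2, the low-affinity glucose transporter of hepatocytes, was lower at -1.14 ± 0.06 on the log2 scale, and SLC2A4, the insulin-responsive transporter, had 8.65, 5.78 and 6.33 CPM in the Cinnamomi Cortex libraries at 500 µg/mL, against 14.1, 13.8 and 14.3 CPM in the vehicle libraries, a log2 fold change of -1.02 ± 0.12. PKLR, the liver pyruvate kinase, was lower at -0.42 ± 0.10, and the muscle enolase ENO3 at -1.22 ± 0.09. HKDC1, a further hexokinase, rose by 0.95 ± 0.06, with 41.5, 42.9 and 45.1 CPM in the Cinnamomi Cortex libraries at 500 µg/mL, against 21.7, 24.6 and 20.6 CPM in the vehicle libraries. EPO, the hormone first known as the product of the hypoxia response, had 10.5, 10.2 and 9.09 CPM in the Cinnamomi Cortex libraries at 500 µg/mL, against 6.39, 8.04 and 6.45 CPM in the vehicle libraries, a change of 0.51 ± 0.14 that was not called with total counts as library size. All 6 kept their sign with that scaling.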
